A study of Mus musculus with 4 samples.

Results

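The 10 genes described here encode the RNA-binding proteins that set much of the neuronal pattern of splicing and messenger RNA stability. They are the neuronal Hu genes Elavl2, Elavl3 and Elavl4, the Rbfox genes Rbfox1, Rbfox2 and Rbfox3, the Nova genes Nova1 and Nova2, and the polypyrimidine tract binding protein genes Ptbp1 and Ptbp2. They were taken by symbol from a fixed list, and all 10 were found among the 27293 genes of the count table. RNA had been sequenced from telencephalic tissue of C57BL/6 mouse embryos at embryonic day 13 (E13), which the study's methods call cerebral cortex, in 2 libraries labelled wild type (WT 1 and WT 2) and 2 labelled STINGcKO (cKO 1 and cKO 2). The genotype label of the latter is STINGf/f;Nestin-Cre, a floxed STING gene with Cre driven by the Nestin promoter, which is active in neural progenitors and so leaves cells of other lineages outside its main reach. The title of WT 2 ends in "nes" and that of WT 1 in "wt". The labels do not explain the difference, and whether WT 2 carried the Nestin-Cre transgene is not stated there. Counts on genes summed to 17209654 to 18533391 per library.

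The families work in sequence as a progenitor becomes a neuron. PTBP1 is abundant in progenitors and represses neuronal exons, among them one whose skipping lowers PTBP2, and the microRNA miR-124 lowers PTBP1 in new neurons, so that PTBP2 takes its place. Hu proteins bind AU- and U-rich stretches of neuronal mRNAs and favour their stability and translation, while Rbfox and Nova proteins bind short motifs beside alternative exons and switch them to the neuronal form.

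With all 4 libraries in the fit, no gene of the set passed the test of difference between the WT and cKO labels, and each family was well measured in all 4 libraries. In CPM, counts scaled to an equal total for every library, cKO 1 was above cKO 2 by 2.49-fold for Elavl4, 1.91-fold for Ptbp2 and 1.84-fold for Elavl2, while for their paralogs Elavl3 and Ptbp1 cKO 2 was the higher of the pair. Nova1 was the 1 gene of the 10 whose 2 cKO libraries both lay below both WT libraries, an arrangement that 11.2% of all genes tested had. The lowest count of any of the 10 in a library was 913 and the highest 15099, and at 913 counts the counting error alone is 3.31%.

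The promoters of 2 genes that were low in cKO 2 are shown with those of a paralog that was not. Promoter sequences came from RefSeq on build GRCm38.p6, 250 bases before to 50 bases after an annotated start, and 9 of the 10 genes had an entry (Rbfox2 had none). Capitals mark the E-box letters CAGATG (or CATCTG, its reverse complement) and CAGCTG, both strands searched, which proneural helix-loop-helix factors can bind. The windows are chr3:119783339-119783638 (minus strand) for Ptbp2, chr10:79854182-79854481 (plus strand) for Ptbp1, chr4:110351862-110352161 (minus strand, 1 of 4 listed starts) for Elavl4 and chr9:22051974-22052273 (minus strand) for Elavl3.
Ptbp2: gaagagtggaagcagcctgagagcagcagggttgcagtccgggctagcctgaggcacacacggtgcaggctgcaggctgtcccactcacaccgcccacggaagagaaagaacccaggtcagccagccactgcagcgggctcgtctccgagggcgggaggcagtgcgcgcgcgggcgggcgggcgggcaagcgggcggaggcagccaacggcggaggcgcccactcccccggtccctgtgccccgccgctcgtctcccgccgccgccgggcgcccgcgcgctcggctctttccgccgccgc
Ptbp1: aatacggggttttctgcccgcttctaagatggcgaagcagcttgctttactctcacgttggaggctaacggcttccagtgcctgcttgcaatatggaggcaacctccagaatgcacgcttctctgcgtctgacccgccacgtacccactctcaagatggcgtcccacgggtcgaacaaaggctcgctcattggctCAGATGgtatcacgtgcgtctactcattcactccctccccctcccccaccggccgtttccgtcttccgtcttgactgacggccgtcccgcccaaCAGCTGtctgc
Elavl4: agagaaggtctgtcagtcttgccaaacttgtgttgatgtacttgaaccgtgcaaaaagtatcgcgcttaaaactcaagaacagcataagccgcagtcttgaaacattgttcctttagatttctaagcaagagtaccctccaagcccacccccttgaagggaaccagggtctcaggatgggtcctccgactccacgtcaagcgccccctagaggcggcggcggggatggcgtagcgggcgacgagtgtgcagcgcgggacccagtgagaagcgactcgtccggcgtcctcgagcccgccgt
Elavl3: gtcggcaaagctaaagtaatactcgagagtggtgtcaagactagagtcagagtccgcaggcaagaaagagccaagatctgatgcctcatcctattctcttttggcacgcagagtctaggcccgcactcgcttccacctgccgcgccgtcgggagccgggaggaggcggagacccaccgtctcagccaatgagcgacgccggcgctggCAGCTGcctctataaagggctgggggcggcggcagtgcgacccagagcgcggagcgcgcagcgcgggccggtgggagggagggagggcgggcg

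The Ptbp2 window was the richest of the 4 in G and C, at 74.7% with 36 CG dinucleotides, against 58.3% and 22 for Ptbp1, 57.0% and 23 for Elavl4, and 65.3% and 29 for Elavl3. The median of 32851 promoter windows of the same length was 52.7% with 7 CG dinucleotides. CAGCTG occurred once each in the windows of Elavl2, Elavl3, Nova1 and Ptbp1, and CAGATG once in that of Ptbp1. The 2 forms are not rare, since 17.2% of all windows held CAGATG or CATCTG and 16.3% held CAGCTG.

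Levels were compared between genes as CPM per kilobase of exon, since longer transcripts collect more reads. Elavl3, the most abundant of the neuronal Hu genes, had a median of 92.7 CPM per kilobase over the 4 libraries (range 86.0 to 96.9). Rbfox2, an Rbfox gene that is also expressed outside neurons, had 89.6 (84.7 to 100), and the ranges of these 2 overlapped. Both lay well above Ptbp1 at 45.3 (40.4 to 47.8) and Ptbp2 at 31.4 (17.7 to 36.0) on the same scale. The range of Ptbp2 overlapped that of Elavl4, the first of 5 genes that followed with each range overlapping the next. These were Elavl4 (24.1), Nova2 (22.6), Rbfox3 (20.1, the gene of the neuronal antigen NeuN), Elavl2 (17.3) and Rbfox1 (13.2). Nova1 was the lowest at 6.63 CPM per kilobase (5.72 to 8.42), apart from all others, and its median was still above that of 56.2% of the genes tested. With the longest coding transcript in place of all exons, the mean level of Ptbp2 became 70.7 and that of Ptbp1 66.9 CPM per kilobase, so that the order of these 2 depended on the length used. The order of the next 4 changed as well, to Rbfox3 (mean 38.0), Elavl2 (32.7), Elavl4 (28.2) and Nova2 (22.7), while the first 2 and last 2 places stayed.

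**Figure D1:**
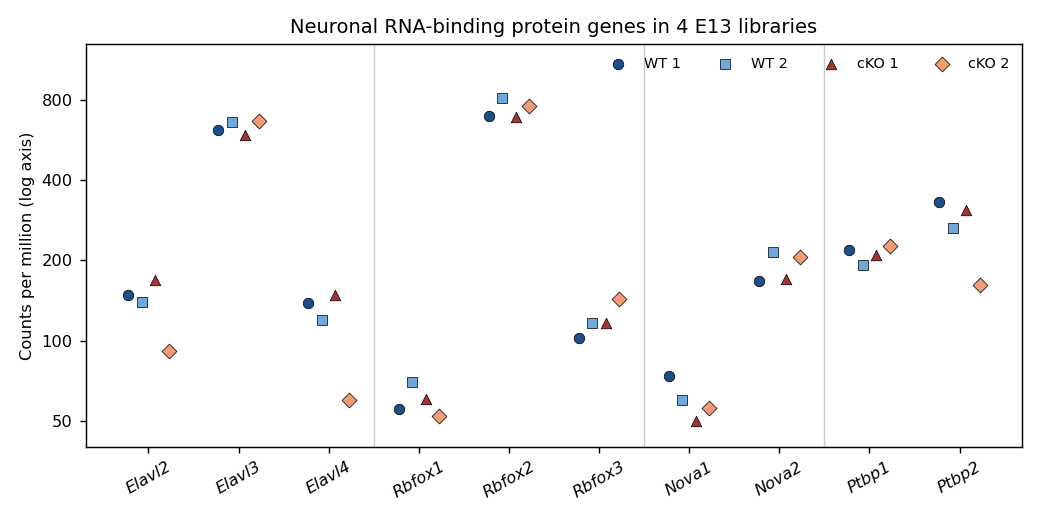
CPM (log axis) of the 10 genes, with 1 symbol for each of the 4 libraries and grey lines between families. The cKO 2 symbol sits below the other 3 for Elavl2, Elavl4, Rbfox1 and Ptbp2, while for Elavl3 and Ptbp1 the 4 libraries lie close together.

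Tmem173, the older symbol of the STING gene and the one used in the table, gives the RNA of the targeted gene in each library. It had 20 and 19 counts in WT 1 and WT 2, and 18 and 22 in cKO 1 and cKO 2 (log2 fold change of cKO over WT 0.02, standard error, SE, 0.45). The groups overlapped, with the lowest count in cKO 1 and the highest in cKO 2, so every direction below refers to labels. The low count leaves a wide interval for the log2 fold change (-1.02 to 1.07). A count over the whole gene in bulk tissue cannot decide on the deletion, since cells outside the main reach of Nestin-Cre may keep the gene. By Western blot of older embryonic cortex, the study reported a significant difference in STING protein between the genotypes.

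Differences between labels were tested with edgeR's quasi-likelihood test on 16145 genes. After Benjamini-Hochberg adjustment edgeR called 0 genes (0%), none of the 10 among them. At an unadjusted p under 0.05 it gave 199 genes (1.23%) and 0 of the 10. At the same level DESeq2, run on all 27293 genes without that filter, gave 141 genes and 0 of the 10. The study's own thresholds, a fold of at least 2 with an unadjusted p of at most 0.05, called 131 genes (0.811%), 108 lower and 23 higher in cKO, and 0 of the 10. Without WT 1 that split turned, with 47 lower and 57 higher and still 0 of the 10. Without cKO 1 the log2 fold change was -0.63 for Elavl2, -1.09 for Elavl4, -0.86 for Ptbp2, 0.40 for Rbfox3 and -0.23 for Nova1. Without cKO 2 the values were 0.24, 0.21, 0.07, 0.10 and -0.40 in the same order. In the fit of all 4 libraries, 8 of the 10 log2 fold changes were negative and 2 positive. Their median was -0.10 against -0.01 for all genes tested, and the median size without sign was 0.15 against 0.13. In bulk tissue fewer cells of a type and less RNA per cell cannot be told apart.

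**Figure D2:**
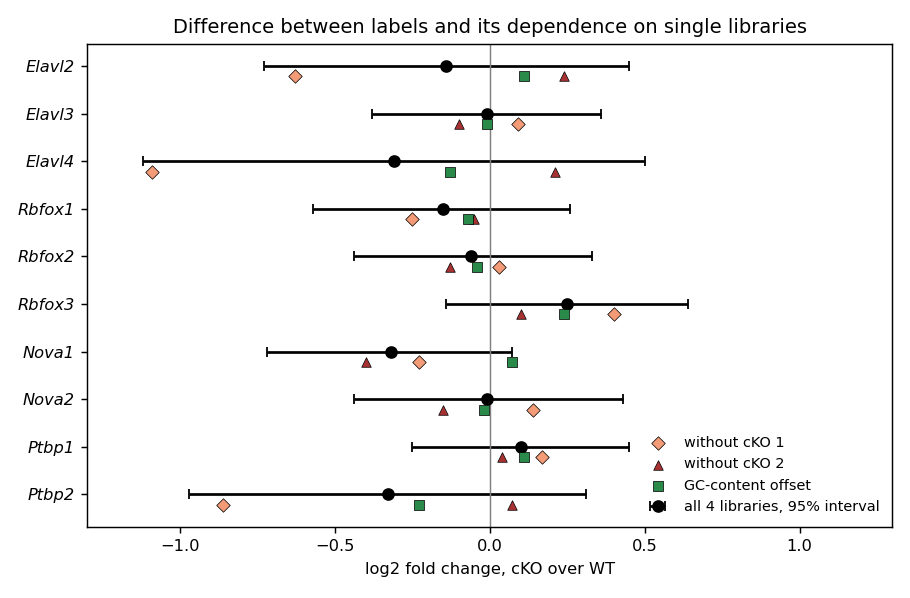
Log2 fold change of cKO over WT for each gene (black, with the 95% interval from edgeR), and below it the value without cKO 1, without cKO 2, and with an offset for GC content. All 10 intervals include 0, and for Elavl2, Elavl4 and Ptbp2 the values without cKO 1 and without cKO 2 lie on opposite sides of 0.

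Of the 10 genes, Elavl4 had the widest gap between the 2 cKO libraries. Elavl4 (ENSMUSG00000028546, HuD, minus strand, chr4:110203722-110351909 in the deposited table, GRCm38 positions), whose product binds mRNAs of growing axons, had 139 and 120 CPM in WT 1 and WT 2, and 149 and 59.7 in cKO 1 and cKO 2. The cKO libraries held the highest and the lowest of the 4 values and thus enclosed both WT libraries. The mean was 130 ± 13.7 CPM in WT and 104 ± 62.8 in cKO (SD, n = 2 each), a log2 fold change of -0.31 (SE 0.35, 95% interval -1.12 to 0.50, adjusted p = 0.99998 from edgeR). The sign was set by cKO 2, since the log2 fold change was 0.21 without it and -1.09 without cKO 1. Each of these fits assumed that the lone cKO library varied like the others.

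Elavl2 (ENSMUSG00000008489, HuB, minus strand, chr4:91250763-91400785), a Hu gene of new neurons and also of gonads, had 149 and 140 CPM in WT 1 and WT 2, and 169 and 91.8 in cKO 1 and cKO 2. Here too the 2 cKO libraries lay on either side of both WT libraries. The log2 fold change was -0.14 (SE 0.25, interval -0.73 to 0.45), 0.24 without cKO 2 and -0.63 without cKO 1. Elavl3 (ENSMUSG00000003410, HuC, minus strand, chr9:22015005-22052023), a widely used marker of neurons, had 617 and 661 CPM in WT 1 and WT 2, and 593 and 668 in cKO 1 and cKO 2. Its groups overlapped, cKO 2 was the highest of the 4, and the log2 fold change was -0.01 (SE 0.16, interval -0.38 to 0.36).

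The balance within the Hu family differed in 1 library. Of the summed Hu CPM per kilobase, Elavl3 made up 67.2% and 71.1% in WT 1 and WT 2, and 64.2% and 81.4% in cKO 1 and cKO 2. Elavl4 made up 19.4%, 16.5%, 20.6% and 9.31% in the same order. The summed CPM of the 3 genes varied less, at 905, 921, 910 and 819.

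The PTB pair behaved likewise. Ptbp2 (ENSMUSG00000028134, nPTB, minus strand, chr3:119718742-119784466), the PTB protein of differentiating neurons, had 331 and 266 CPM in WT 1 and WT 2, and 310 and 162 in cKO 1 and cKO 2. The value of cKO 1 lay between those of the WT libraries and that of cKO 2 below all 3. The mean was 298 ± 45.7 in WT and 236 ± 105 in cKO CPM (SD, n = 2 each). The log2 fold change was -0.33 (SE 0.28, interval -0.97 to 0.31, adjusted p = 0.99998 from edgeR). It was 0.07 without cKO 2 and -0.86 without cKO 1.

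Ptbp1 (ENSMUSG00000006498, plus strand, chr10:79854427-79864771), the progenitor form that represses neuronal exons, had 219 and 192 CPM in WT 1 and WT 2, and 210 and 227 in cKO 1 and cKO 2. The groups overlapped, and the log2 fold change was 0.10 (SE 0.15, interval -0.25 to 0.45). The opposite-strand gene Plppr3 overlaps the end of Ptbp1 and had 8124 to 11104 counts, more than Ptbp1 in every library, and whether counting used strand is not given in the sources used here. The ratio of Ptbp2 to Ptbp1 CPM per kilobase, which rises as progenitors become neurons, was 0.779 and 0.717 in WT 1 and WT 2, and 0.762 and 0.369 in cKO 1 and cKO 2. The ratios of WT 1, WT 2 and cKO 1 lay close together, and cKO 2 alone was apart. The transcripts differ in GC content (43.1% for Ptbp2, 53.7% for Ptbp1), with which cKO 2 over cKO 1 went across genes, as described below. The part of GC content in this ratio was not tested, and the size of the ratio depends on the transcript length used.

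**Figure D3:**
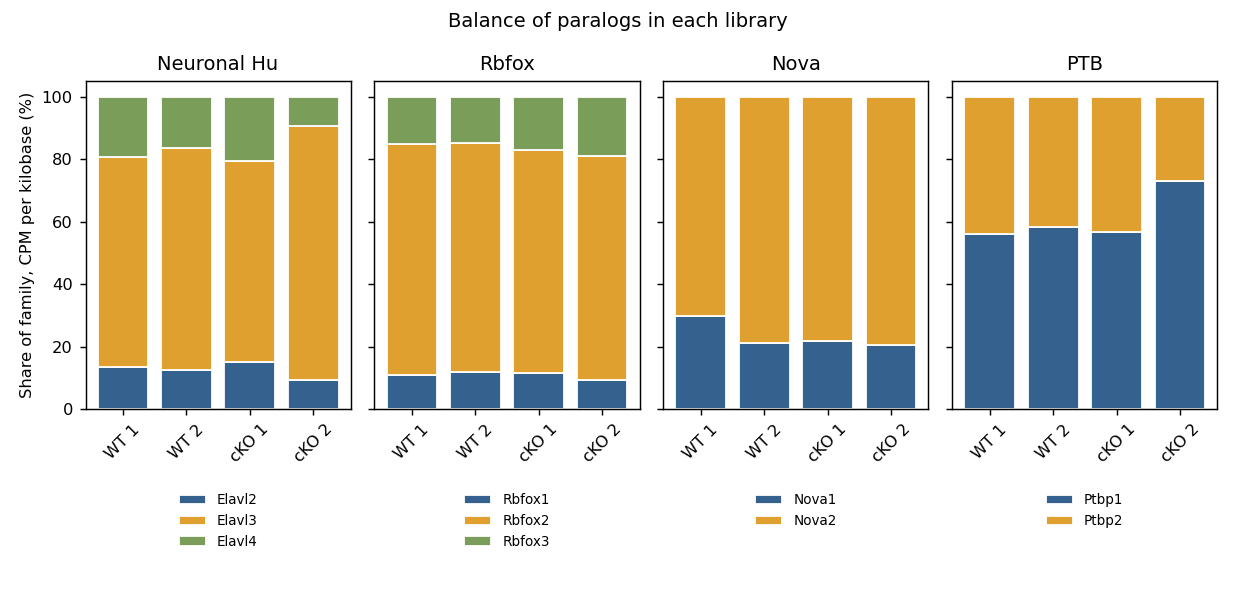
Share of each gene in its family's summed CPM per kilobase of exon (percent, stacked to 100), 1 bar per library. The Elavl3 and Ptbp1 shares are larger in cKO 2 than in the other 3 libraries, and the Nova1 share is larger in WT 1.

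Among the Nova genes, whose products bind clusters of short motifs beside exons of synaptic proteins, Nova1 (ENSMUSG00000021047, minus strand, chr12:46694517-46818929) had 73.7 and 60.1 CPM in WT 1 and WT 2, and 50.1 and 56.0 in cKO 1 and cKO 2. The cKO values were both below the lower WT value, and the opposite arrangement, which 10.4% of the genes tested had, occurred in none of the 10. The log2 fold change was -0.32 (SE 0.17, interval -0.72 to 0.07, adjusted p = 0.99998 from edgeR). It stayed between -0.44 and -0.18 without any 1 library and was 0.07 with an offset for GC content. Nova2 (ENSMUSG00000030411, plus strand, chr7:18925888-18965319), the main Nova gene of the neocortex, had 167 and 215 CPM in WT 1 and WT 2, and 171 and 207 in cKO 1 and cKO 2. Its groups overlapped with WT 2 and cKO 2 as the higher libraries, and the log2 fold change was -0.01 (SE 0.19). Nova1 made up 29.7% of the summed Nova CPM per kilobase in WT 1 and 20.5% to 21.9% in the other 3 libraries.

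No library stood far apart for the Rbfox genes. Rbfox2 (ENSMUSG00000033565, minus strand, chr15:77078990-77307053) had 700 and 815 CPM in WT 1 and WT 2, and 689 and 759 in cKO 1 and cKO 2, with a log2 fold change of -0.06 (SE 0.17, interval -0.44 to 0.33). Rbfox1 (ENSMUSG00000008658, plus strand, chr16:6809222-7412479), which in neurons controls exons of ion channels and synaptic proteins, had 55.6, 69.9, 60.3 and 52.1 CPM in the same order, with a log2 fold change of -0.15 (SE 0.18, interval -0.57 to 0.26). The groups overlapped for both genes. Rbfox3 (ENSMUSG00000025576, minus strand, chr11:118489762-118911597), a gene of maturing neurons, had 102, 117, 117 and 143 CPM. WT 2 and cKO 1 were almost equal and cKO 2 was the highest, and the log2 fold change was 0.25 (SE 0.17, interval -0.14 to 0.64), the highest of the 10. Rbfox2 made up 71.5% to 74.0% of the Rbfox CPM per kilobase in the 4 libraries, and Rbfox3 18.9% in cKO 2 against 14.8% to 16.9% in the others.

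The ratio of cKO 2 to cKO 1 went with base composition and, less closely, with transcript length. Across 14919 genes with 10 counts or more in each of the libraries, the log2 ratio of cKO 2 to cKO 1 had a Spearman correlation of 0.65 with the GC content of the longest coding transcript, against 0.16 for WT 2 over WT 1 (the points share libraries and depth, and both values are descriptions). With the length of that transcript the correlation was -0.37 for cKO 2 over cKO 1 and 0.10 for WT 2 over WT 1. Among the 10 genes alone, the correlation of cKO 2 over cKO 1 with length was 0.30. The median log2 ratio of cKO 2 to cKO 1 was -0.80 for genes under 40% GC and 0.37 for genes of at least 60%. The 10 genes spanned 38.5% to 58.6% GC. Elavl4 (38.9% GC) had a log2 ratio of -1.32, lower than all but 1.71% of genes, Ptbp2 (43.1%) had -0.94 and Elavl2 (38.5%) -0.88. The 5 genes at 51.5% GC or more (Rbfox2, Ptbp1, Elavl3, Nova2 and Rbfox3) had log2 ratios of 0.11 to 0.29. Nova1 was an exception, with 38.5% GC and a log2 ratio of 0.16. With an offset for GC content, the log2 fold change of cKO over WT was -0.13 for Elavl4, -0.23 for Ptbp2 and 0.11 for Elavl2. With an offset for transcript length it was -0.24, -0.25 and -0.06 in the same order. The parts of base composition and transcript length in these differences were not tested.

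**Figure D4:**
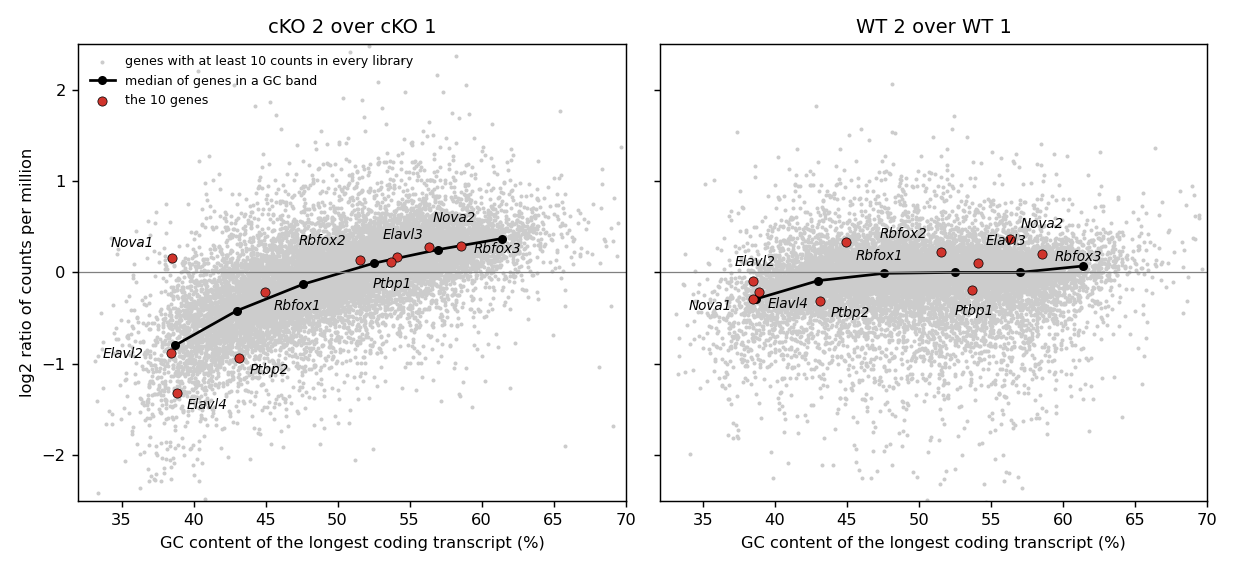
Log2 ratio of CPM between the 2 cKO libraries (left) and the 2 WT libraries (right) against transcript GC content in percent, for 14919 genes (grey), the median per GC band (black line) and the 10 genes (red). The median line climbs with GC for cKO 2 over cKO 1, with Elavl4 and Ptbp2 below it and Nova1 above it, and is flatter for WT 2 over WT 1, and genes beyond the axis limits are not drawn.

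Of 10 neuron markers, 6 had cKO 2 as their lowest library, against 35.1% of all genes tested. Dcx, which encodes a microtubule protein of migrating neurons (40.6% GC), had 864 and 1107 CPM in WT 1 and WT 2, and 1084 and 517 in cKO 1 and cKO 2. Map2, a dendritic microtubule protein gene (47.8% GC), had 705, 711, 756 and 395 in the same order. Tubb3, the neuronal tubulin gene (57.9% GC), had 1786, 2040, 1698 and 2246, so these 3 markers of the same cell type disagreed in cKO 2. None of 10 neuron markers, 10 radial glia markers or 6 intermediate progenitor markers passed an unadjusted p under 0.05 in edgeR. The summed CPM of the neuron list was 5253 and 5969 in WT and 5660 and 4955 in cKO, that of the radial glia list 2903 and 2799 against 3042 and 2945, and that of the intermediate progenitor list 873 and 918 against 962 and 944. Sox2 (165 to 214 CPM), Pax6 (117 to 157) and Eomes (236 to 297), defining markers of cortical progenitors, were present in all 4 libraries.

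WT 1 also held more RNA of markers of other tissues and of caudal brain. The summed CPM of 6 choroid plexus markers was 53.2 in WT 1 and 6.96 to 8.85 in the others, that of 10 mesenchyme markers 312 against 47.8 to 85.4, that of 6 blood markers 899 against 337 to 520, that of 6 endothelial markers 186 against 117 to 136, that of 6 microglia markers 40.4 against 26.1 to 31.7, and that of 7 caudal brain markers 25.0 against 14.9 to 16.1, and no marker of these lists in the table was at 0 in all 4 libraries. At an unadjusted p under 0.05, edgeR had 3 of 3 tested choroid plexus markers, 3 of 9 mesenchyme markers and 2 of 6 endothelial markers lower in cKO, and 0 of the 6 blood, 6 microglia and 4 tested caudal markers. The 8 ventral telencephalon markers summed to 648 CPM in cKO 1 and 966 to 1022 in the others, with 1 lower. Nova1, whose highest value was in WT 1, had a log2 fold change of -0.18 without WT 1. The part of these tissues in the values of the 10 genes was not tested.

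Of 42 other RNA-binding protein genes listed, 39 were tested, and edgeR called 0 after adjustment and 0 at the study's thresholds, with 1 lower and 0 higher at an unadjusted p under 0.05. The median log2 fold change was -0.08, with 26 negative and 13 positive, and cKO 2 was the lowest library for 48.7% of them against 35.1% of all genes tested and 4 of the 10. The 1 lower gene was Lin28b, a progenitor gene that blocks let-7 maturation, with 12.9 and 11.3 CPM in WT and 8.44 and 6.69 in cKO (log2 fold change -0.67, SE 0.25). Its 2 groups did not overlap.

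Of the remaining paralogs, Elavl1, the Hu gene of most tissues, had 169 and 171 CPM in WT and 185 and 179 in cKO (log2 fold change 0.11, SE 0.14). Ptbp3 had 34.5 and 26 CPM in WT and 30.3 and 13.9 in cKO (log2 fold change -0.44, SE 0.33), with cKO 2 the lowest as for Ptbp2, and its transcript has 38.9% GC. Srrm4, the activator of neuronal microexons, had 207 and 257 CPM in WT against 261 and 225 in cKO, and its relative Srrm3 had 54.3 and 63.8 against 46.3 and 66.9. The groups overlapped for both Srrm genes. Cpeb2, a translational regulator, had 13.9 and 17.9 CPM in WT and 12.3 and 5.75 in cKO (log2 fold change -0.81, SE 0.35), and Mbnl2, a splicing regulator, had 13.7 and 11.2 against 10.3 and 6.41 (-0.57, SE 0.29). Raver1, a partner of PTBP1, was counted only 5 and 6 times in WT against 17 and 10 times in cKO (log2 fold change 1.28, SE 0.61).

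None of 7 genes of the REST complex, which represses neuronal genes in other cells, passed an unadjusted p under 0.05 in edgeR (median log2 fold change 0.09), and Rest itself had 28.2 and 24.1 CPM in WT and 30 and 20.1 in cKO. The same held for 6 mRNAs known to be bound by Hu proteins (median -0.11) and 3 mRNAs with a PTBP1-controlled exon (median -0.03). Mir124a-1hg, a host gene of miR-124, was named after its values were seen. It had 341 and 275 CPM in WT and 244 and 228 in cKO, groups that did not overlap, and a log2 fold change of -0.37 (SE 0.16, edgeR unadjusted p = 0.0496, adjusted p = 0.99998).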

How the data were processed

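Total RNA of 4 libraries from E13 mouse telencephalic tissue, 2 labelled WT and 2 labelled cKO, had been sequenced on an Illumina HiSeq instrument. The authors deposited raw counts of reads per gene. The submitters' processing notes name Bowtie2 2.2.3, TopHat2 2.0.12, HTSeq 0.6.0 and the build mm9, but of 27232 genes found in GENCODE M21 97.2% had a start or end within 1 base of it, so positions were read as GRCm38. A second deposited table of cKO 1 and WT 1 holds the same counts and CPM values by the authors, which were only inspected. The authors' own fold changes, log2 fold changes, p-values and adjusted p-values were not used. Of 27304 rows, 11 (0.0403%) named no gene and were left out.

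CPM was computed from library totals (17209654 to 18533391 counts). Groups were compared by the quasi-likelihood test of edgeR 4.0.16 under R 4.3.3 (filterByExpr, TMM factors, no covariate, Benjamini-Hochberg adjustment over 16145 genes), with 2 libraries per group, and all p-values are two-sided. DESeq2 1.42.0, other normalizations, filters, a replicate block and leaving out each library were alternatives, and offsets for GC content and transcript length (splines with 5 df) were added after seeing the data. The scripts were tested on simulated data. Nothing in the sources states that the libraries came from separate embryos or litters, so p-values measure the spread between these libraries only. Levels per kilobase used the union of exons of GENCODE M21.

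The 10 genes and all lists were chosen with earlier results of these data known, so no count over them is independent support. All 10 were reported in full. Of the other lists, Elavl1, Ptbp3, Srrm4, Srrm3, Rest and the 4 other genes with the smallest unadjusted p were named, and of the marker lists Sox2, Pax6, Eomes, Tubb3, Dcx and Map2. Choroid plexus markers missing from the 4-library table were not analysed here.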

Additional observations from a re-analysis of the deposited data

How the results depend on the processing

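Of 130 alternative values for the log2 fold changes of the 10 genes, 112 kept their direction and side of the threshold, 17 changed sign and 1 passed the threshold. The GC-content offset turned Elavl2 to 0.11 and Nova1 to 0.07, the transcript-length offset turned Elavl3 to 0.11, Rbfox2 to 0.08 and Nova2 to 0.15, and DESeq2 gave 0.00 for Elavl3 and Nova2. Leaving out 1 library at a time gave log2 fold changes of -0.63 to 0.24 for Elavl2, -0.10 to 0.09 for Elavl3, -1.09 to 0.21 for Elavl4, -0.32 to 0.05 for Rbfox1, -0.17 to 0.08 for Rbfox2, -0.19 to 0.21 for Nova2 and -0.86 to 0.07 for Ptbp2. It gave 0 to 1 of the 10 at an adjusted p under 0.05 and 0 to 1 at the study's thresholds, Elavl4 without cKO 1 in both cases. Over all genes, edgeR calls at an adjusted p under 0.05 rose from 0 to 65 with no filter on low counts and ranged from 0 to 116 without 1 library (7 without WT 1, 116 without WT 2, 104 without cKO 1). At the study's thresholds 131 genes became 406 with no filter, 72 when each library needed 10 counts, 82 with DESeq2 and 104 to 531 without 1 library (477 without WT 2, 531 without cKO 1). The causes were not tested.

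With the replicate number as a block, 5 genes passed an adjusted p under 0.05 and 209 the study's thresholds, none of the 10 among either, and the log2 fold change was -0.44 for Elavl4, -0.39 for Ptbp2 and -0.20 for Elavl2. Under the block, the unadjusted p from edgeR was 0.0344 for Elavl4 and 0.0381 for Ptbp2, against 0.401 and 0.269 without it. The share of all genes with an unadjusted p under 0.05 was not counted for the block, so these values are not read as a result about the set. Deviations of same-numbered libraries correlated at 0.104 over 16145 genes, and no label says that a number marks a litter or batch, so the number was not taken as a pairing. Levels per kilobase with the longest coding transcript ranged from 8.38 for Nova1 to 127 for Elavl3. With 913 counts or more per library, counting error is small beside the difference between the cKO libraries. All intervals rest on 2 libraries per group, and the SE ran from 0.15 for Ptbp1 to 0.35 for Elavl4.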
